A study of Homo sapiens with 4 samples.

Results

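The interferon response gene loci are 47 human genes of the interferon pathway, chosen by name, and the binding of the long noncoding RNA *MIR205HG*/*LEADR* to their chromatin was described from ChIRP-seq peaks. A gene was given every peak that overlapped its annotated body extended by 10 kb on both sides. All 47 genes were found in the annotation, among 20162 protein-coding genes, and 12 of them had a peak in at least 1 replicate. The 12 genes were *JAK1*, *IRF1*, *IRF2*, *IRF7*, *IFIH1*, *IFI6*, *MX1*, *MX2*, *OAS1*, *OAS3*, *BST2* and *SAMD9L*. Protein-coding genes of like length on the same chromosomes had peaks about as often.

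Interferons are cytokines that cells release when they sense a virus. Type I interferons bind the receptor chains IFNAR1 and IFNAR2, the attached kinases JAK1 and TYK2 phosphorylate STAT2, and STAT2 and IRF9 enter the nucleus as part of the complex ISGF3. ISGF3 and the IRF factors bind the interferon-stimulated response element in promoters and switch on effector genes such as those of the MX, OAS and IFIT families. Epithelial cells carry this whole pathway, and most of its effector genes are low in cells without infection or interferon.

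All samples were RWPE-1 cells, a prostate line of basal epithelial type made immortal in culture, which expresses *MIR205HG*/*LEADR*, the nuclear host transcript of the microRNA miR-205. The cells were crosslinked with formaldehyde and sonicated, and the labels name no interferon treatment, genotype change or infection. In ChIRP, an RNA is captured by tiled biotin-labelled oligonucleotides complementary to it, and the DNA crosslinked to it is sequenced. MIR205HG probes were used in 3 independent experiments and lacZ probes, which match no human RNA by design, in 1 library.

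The authors called the peaks of each MIR205HG replicate against that single lacZ library, so the errors of the 3 lists are not independent. Fold enrichment below is the deposited value, the scaled ChIRP reads at the summit plus 1 over the local lacZ level plus 1, so at these low levels it is smaller than the plain ratio of reads. Replicate 1 stood apart, with 723 peaks against 10769 in replicate 2 and 17064 in replicate 3. Its library was the deepest of the 3, at 1.83 times the lacZ library, against 1.39 times and 1.00 times for replicates 2 and 3. Single peaks rested on few reads, with a median of 27, 21 and 16 reads at the summit in replicates 1, 2 and 3.

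Peaks of different replicates that overlapped formed a shared site. The members held 8 shared sites, all of them from replicates 2 and 3, at *JAK1*, *IRF2*, *SAMD9L*, *OAS1*, *OAS3* and *BST2*. Of these sites, 7 held *Alu* sequence, found as a blastn alignment of at least 100 bp to the whole *Alu* element of *MIR205HG* at chr1:209602341-209602644 (GRCh37, hg19), as did 61.5% of all shared sites and 59.8% of those of like width. Among the shared sites in windows of protein-coding genes, the share was 66.1%. With the part of the element kept in the transcript alone, 4 of 8 sites had such an alignment, against 41.0% of all. In windows of protein-coding genes it was 44.8%. The longest alignment in a site covered 302 bp at the first *OAS3* site, 286 bp at *BST2*, 285 bp at the second *OAS3* site, 254 bp at the second *JAK1* site, 253 bp at *OAS1*, 231 bp at *IRF2* and 179 bp at *SAMD9L*. The *BST2* site held 6 separate alignments of at least 50 bp. The first site of *JAK1* held none.

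The promoters of 5 members are printed here as examples that carry the core of the response element, and no peak overlapped them. Each runs from 250 bases before to 50 bases after the start of a RefSeq transcript in the direction of the gene. The RefSeq table was made on GRCh38, and the coordinates are those of the identical sequence in GRCh37. Capitals mark matches to the core of the interferon-stimulated response element, written as GAAA, any 2 bases and GAAA, or its reverse complement.
OAS3 promoter, chr12:113376029-113376328, plus strand: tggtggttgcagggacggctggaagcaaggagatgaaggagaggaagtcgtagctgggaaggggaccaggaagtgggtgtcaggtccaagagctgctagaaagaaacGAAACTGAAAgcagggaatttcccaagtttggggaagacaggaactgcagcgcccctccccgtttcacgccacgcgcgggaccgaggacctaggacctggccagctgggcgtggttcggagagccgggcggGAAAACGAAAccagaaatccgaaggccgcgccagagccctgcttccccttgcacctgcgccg
BST2 promoter, chr19:17516390-17516689, minus strand: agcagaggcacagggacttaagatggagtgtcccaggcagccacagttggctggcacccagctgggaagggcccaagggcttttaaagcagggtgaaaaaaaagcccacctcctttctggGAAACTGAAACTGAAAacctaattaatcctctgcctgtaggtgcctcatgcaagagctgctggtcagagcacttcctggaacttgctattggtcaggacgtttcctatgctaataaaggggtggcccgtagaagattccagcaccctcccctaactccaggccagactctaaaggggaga
IFIH1 promoter, chr2:163175145-163175444, minus strand: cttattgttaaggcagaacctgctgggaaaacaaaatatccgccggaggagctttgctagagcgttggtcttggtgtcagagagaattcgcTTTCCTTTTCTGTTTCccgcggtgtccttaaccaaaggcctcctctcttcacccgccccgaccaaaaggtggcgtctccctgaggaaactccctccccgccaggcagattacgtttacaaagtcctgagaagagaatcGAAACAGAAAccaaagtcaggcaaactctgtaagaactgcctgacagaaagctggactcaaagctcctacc
ISG15 promoter, chr1:948627-948926, plus strand: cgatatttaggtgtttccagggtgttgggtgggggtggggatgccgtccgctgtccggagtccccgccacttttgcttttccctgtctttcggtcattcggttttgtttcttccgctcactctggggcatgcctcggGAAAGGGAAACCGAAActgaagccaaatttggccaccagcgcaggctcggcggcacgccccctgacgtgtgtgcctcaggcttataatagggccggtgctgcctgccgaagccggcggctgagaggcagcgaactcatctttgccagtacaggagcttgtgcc
IFIT1 promoter, chr10:91152130-91152429, plus strand: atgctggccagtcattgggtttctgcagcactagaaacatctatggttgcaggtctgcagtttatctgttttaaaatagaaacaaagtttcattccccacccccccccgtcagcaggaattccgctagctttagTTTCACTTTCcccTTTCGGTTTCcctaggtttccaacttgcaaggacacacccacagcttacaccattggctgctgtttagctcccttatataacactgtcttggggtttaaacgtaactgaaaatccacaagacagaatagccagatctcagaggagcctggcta
*OAS3* and *BST2* had shared sites, *IFIH1* had peaks on both sides of this promoter in replicate 3, and *ISG15* and *IFIT1* had no peak. Of the 47 members, 36 had a promoter in the RefSeq table, and 21 of the 36 (58.3%, exact 95% interval 40.8 to 74.5) held at least 1 match. The same match was found in 622 of 15282 other protein-coding genes with a RefSeq promoter (4.07%). No peak of any replicate overlapped a promoter of a member that could be placed on GRCh37, which was possible for 35 of the 36 genes. A window of this size at any annotated start held a peak at only 2.20% of all protein-coding genes. The count of 0 among 35 lies near that share. Of the 21 members with a match, 5 had a peak in their window and 2 had peaks in 2 replicates, and of the 15 members without one, 4 had a peak and 3 had peaks in 2 replicates. Over all protein-coding genes, 28% had a peak in at least 1 replicate and 17.2% in at least 2. The groups were not matched for length or chromosome. A match needs exactly 2 bases between the GAAA copies. Copies spaced otherwise, as in the *OAS1* promoter, were not counted, so a member without a match may still hold a response element.

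The first question was how many member loci carried *MIR205HG* peaks and in how many replicates. No member had a peak in replicate 1 (0 of 47, exact 95% interval 0 to 7.55%), where 1.84% of all protein-coding genes had one. In replicate 2, 7 of 47 members had a peak (14.9%, interval 6.20 to 28.3), against 18.6% of all protein-coding genes. In replicate 3, 11 of 47 had one (23.4%, interval 12.3 to 38.0), against 26.5% of all. The share of members lay below that of all genes in each replicate, and the intervals, which cover counting error only, include the share of all genes each time.

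Over the replicates, 12 of 47 members had a peak in at least 1 (25.5%, interval 13.9 to 40.3; 28% of all protein-coding genes). Peaks in at least 2 replicates were found at 6 members (12.8%, interval 4.83 to 25.7; 17.2% of all), and the same number had a site shared by at least 2 replicates (16% of all). No member had peaks in all 3 replicates, which 1.82% of all protein-coding genes had. The 6 members with 2 replicates had them in replicates 2 and 3, so without either replicate this count was 0, and without replicate 1 it was 6. The share of all protein-coding genes fell likewise, to 1.83% without replicate 2 and 1.82% without replicate 3, and was 17.2% without replicate 1.

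Long genes offer more room for a peak, and the members were somewhat shorter than other genes, with a median length of 23.5 kb against 27.2 kb. Each member was therefore set beside the protein-coding genes of its own chromosome whose length was within 1.5-fold, which were 39 to 478 genes with a median of 191. Such genes had a peak in at least 1 replicate in 23.0% of cases, which for 47 genes is 10.8 against the 12 members observed. For at least 2 replicates they gave 12.9%, or 6.08 genes against 6 members, a ratio of 0.986 (exact interval of the member share over the share of like genes 0.373 to 1.99). For each replicate alone the like genes gave 1.31% in replicate 1, 14.1% in replicate 2 and 21.8% in replicate 3. The member counts were thus close to those of genes of like length and chromosome, with an interval that holds ratios well below and well above 1.

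**Figure D1:**
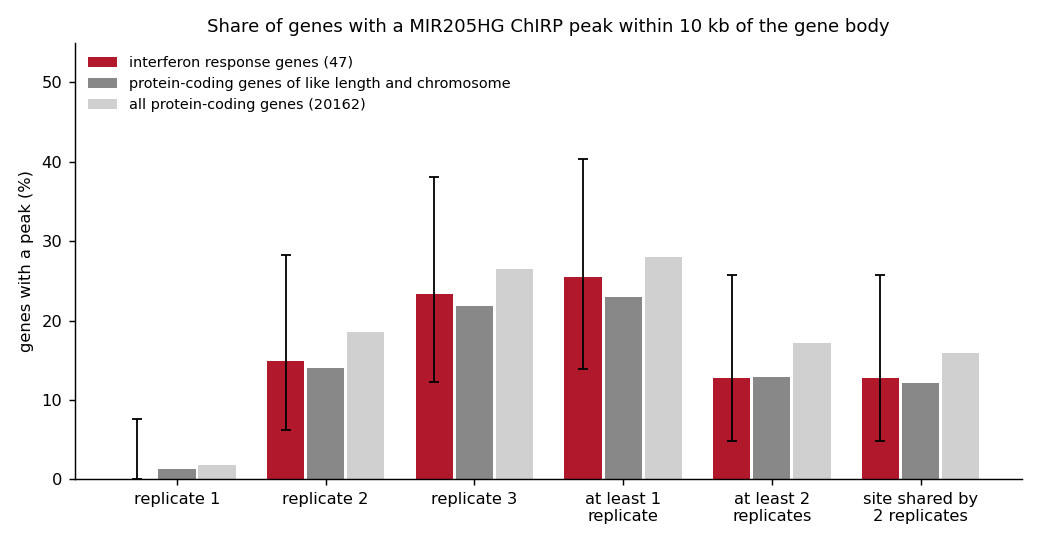
Share of genes (%) with a *MIR205HG* ChIRP peak within 10 kb of the gene body, for the 47 interferon response genes (red, bars of exact 95% intervals), protein-coding genes of like length and chromosome (dark grey) and all 20162 protein-coding genes (light grey). In each class of replicate support, both grey bars lie within the interval of the red bar, from 0 to 7.55% in replicate 1 to 13.9 to 40.3% for at least 1 replicate.

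Windows of neighbouring members overlap, as in the OAS, MX, IFIT and IFITM clusters, so the 47 genes are not independent units. Merged, they form 35 loci, of which 10 had a peak and 5 had peaks in 2 replicates. The shares given above are per gene and are no background for merged loci. In all, the merged windows covered 2.37 Mb and held 11 peaks of replicate 2 and 24 of replicate 3. This is 4.63 peaks per Mb in replicate 2 (exact Poisson 95% interval 2.31 to 8.29), against 4.31 over the windows of all protein-coding genes. In replicate 3 it is 10.1 peaks per Mb (interval 6.48 to 15.0), against 6.87. The higher density of replicate 3 came with several peaks at the same gene, such as 3 peaks each at *IRF7*, *MX1*, *OAS3* and *BST2*, and its interval includes the value of all genes.

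**Figure D2:**
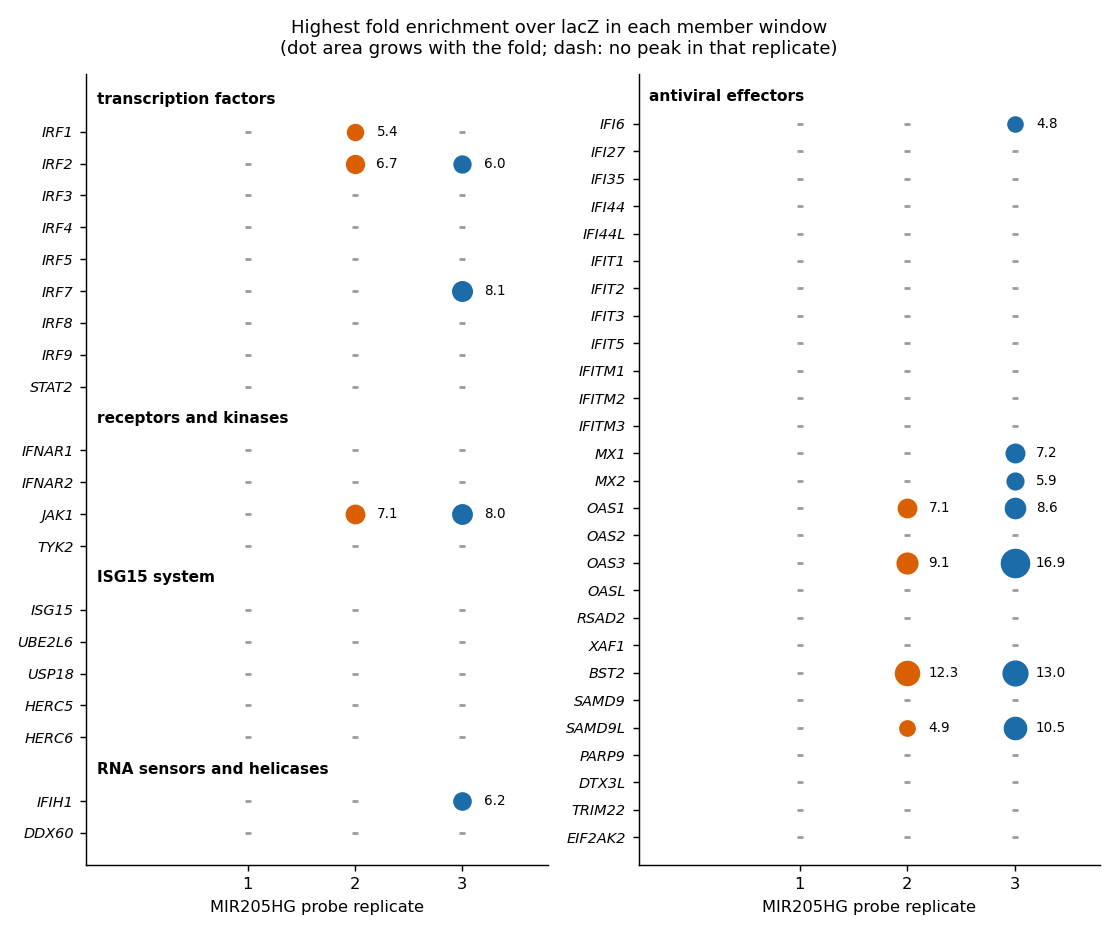
Highest fold enrichment over lacZ in the window of each of the 47 members (rows, grouped by role) in MIR205HG probe replicates 1, 2 and 3 (columns). A dot with its value marks a peak and a dash marks none. Replicate 1 has no dot, replicate 2 has 7 and replicate 3 has 11, and the largest dot is *OAS3* in replicate 3 at 16.9-fold.

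The counts by role below stand against the same background, in which 28% of all protein-coding genes had a peak in at least 1 replicate and 17.2% in at least 2. Among the receptors and kinases, peaks were found at 1 of 4 genes, with 2 replicates. The receptor chains *IFNAR1* and *IFNAR2* and the kinase gene *TYK2* had none. *JAK1*, which codes for a kinase shared by many cytokine receptors, spans chr1:65298906-65533437 on the minus strand and is by far the longest member, at 235 kb. Its first shared site, chr1:65311770-65314176, had a fold enrichment of 7.13 in replicate 2 (17 reads) and 7.97 in replicate 3 (15 reads). The summits of the 2 replicates lay 1020 bp apart in it, so the overlap comes from the broad peak of replicate 3. A second site at chr1:65314908-65315218 had 6.24-fold (16 reads) and 5.98-fold (11 reads), with both summits on the same base.

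Both *JAK1* sites lay in the 3′ part of the gene, near the starts of short internal transcripts. In the first site, the summit lay 0.598 kb past such a start in replicate 2 and 0.422 kb before it in replicate 3, and in the second 1.22 kb before another. From the nearest RefSeq start of *JAK1* the sites were 120 kb and 117 kb away. *JAK1* was the only member with a peak over a window from 250 bp before to 50 bp after any annotated start, which 2.20% of all protein-coding genes had. Peaks in 2 replicates were found at 49.6% of the 121 genes of like length on its chromosome.

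The transcription factors had peaks at 3 of 9 genes, and at 1 in 2 replicates. *IRF3*, *IRF4*, *IRF5*, *IRF8*, *IRF9* and *STAT2* had none. *IRF2*, a factor that binds the same element as IRF1 and mostly acts as a repressor, spans chr4:185306856-185395712. Its shared intronic site at chr4:185332121-185332457 had 5.11-fold enrichment in replicate 2 (20 reads) and 5.98-fold in replicate 3 (17 reads), with summits 1 bp apart. The site lay 63.4 kb from the start of the longest coding transcript and 18.2 kb from the nearest annotated start. Of like genes, 17.0% had peaks in 2 replicates. *IRF2* also held a second peak in each replicate that the other did not have, at 6.74-fold in replicate 2 and 4.32-fold in replicate 3.

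*IRF1* and *IRF7* had peaks in 1 replicate each. *IRF1*, the factor first found at the interferon beta promoter, had a single peak in replicate 2 (5.35-fold, 21 reads). That peak lay 35.8 kb downstream of the RefSeq start, inside an annotated body that is stretched to 68.3 kb by long transcripts and shared there with other annotated genes. *IRF7*, which drives the production of type I interferon, had 3 peaks in replicate 3, at 8.09-fold, 8.09-fold and 7.01-fold (14, 14 and 12 reads). They lay from 3.12 to 4.89 kb past the 5′ end of this 3.43 kb gene, and the first pair overlapped the neighbouring gene *PHRF1*. None of the 3 was found in replicate 2.

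Of the RNA sensors and helicases, *DDX60* had no peak and *IFIH1*, which codes for the sensor MDA5 of long double-stranded RNA, had peaks on both sides of its start in replicate 3 only. The first summit lay 0.575 kb inside the gene (6.23-fold, 12 reads) and the second 0.437 kb before its start (6.18-fold, 30 reads, over a scaled lacZ level of 4). The upstream peak, chr2:163175479-163175805, lies just upstream of the printed promoter and overlaps the annotated gene *GCA*. Among the genes whose RefSeq start could be placed, these were the summits closest to it, and no second replicate had them.

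The ISG15 system had no peak at any of its 5 genes. *ISG15* codes for a small ubiquitin-like protein, *UBE2L6* for its conjugating enzyme, *HERC5* for a ligase, *HERC6* for a protein related to HERC5 and *USP18* for the protease that removes ISG15. The nearest shared site to a start of *ISG15* was 12.7 kb away, and those of the other 4 were 96.9 kb to 641 kb away.

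The antiviral effectors were the largest group, with a peak at 7 of 27 genes, against 28% of all protein-coding genes, and peaks in 2 replicates at 4, against 17.2%. *OAS1* and *OAS3*, neighbours in the cluster of genes for the enzymes that make 2-5A and so activate RNase L, held 3 of the 8 shared sites. *OAS3* spans chr12:113375856-113414265. Its second site, chr12:113386829-113387884, had the highest mean fold of the members, with 9.07-fold in replicate 2 (28 reads) and 16.9-fold in replicate 3 (38 reads). The mean of 13.0 was above that of 90.3% of all 8020 shared sites. The first site, chr12:113385959-113386343, had 4.80-fold (22 reads) and 7.62-fold (25 reads).

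The *OAS3* sites lay 9.89 kb and 11.3 kb past the RefSeq start, and 1.72 kb past and 0.801 kb before the starts of internal transcripts. *OAS1*, chr12:113343661-113371024, had 1 shared intronic site at chr12:113363297-113363637, with 7.13-fold (17 reads) and 8.63-fold (15 reads), 18.7 kb from the RefSeq start. All 3 sites also lay over the annotated lncRNA ENSG00000257452. The remaining gene of the cluster, *OAS2*, had no peak, and the shared site nearest to its start was the second *OAS3* site, 28.6 kb away. *OASL* had no peak either. Peaks in 2 replicates were found at 8.02% of the genes like *OAS1* and 10.2% of those like *OAS3*.

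*BST2*, the gene of tetherin, which holds budding virus particles at the cell surface, spans only 2.69 kb at chr19:17513748-17516439 on the minus strand. Its shared site at chr19:17510214-17512473 lay downstream of the gene end and was 2260 bp wide, wider than 97.7% of all shared sites. It had 12.3-fold enrichment in replicate 2 (50 reads) and 13.0-fold in replicate 3 (43 reads), the highest read numbers of any member site. The folds of replicates 2 and 3 were closer to each other here than at *OAS3* or *SAMD9L*. Close folds were not particular to *BST2*, as the second *JAK1* site had 6.24-fold and 5.98-fold. The middle of the summits lay 5.19 kb past the RefSeq start, and 9.09% of like genes had peaks in 2 replicates.

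*SAMD9L*, which codes for an antiviral protein that restricts poxviruses, had the only shared site upstream of a gene, at chr7:92781841-92782123, 4.30 kb before its start. The fold was 4.87 in replicate 2 (19 reads) and 10.5 in replicate 3 (20 reads). Read numbers were thus about equal while the folds were not, as replicate 2 is scaled by its greater depth and had a scaled lacZ level of 2 against 1. Its paralogue *SAMD9*, in an overlapping window, had no peak.

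*MX1*, *MX2* and *IFI6* had peaks in replicate 3 only. *MX1* and *MX2* code for dynamin-like GTPases that trap incoming viral particles. *MX1* had peaks of 7.25-fold (22 reads), 3.49-fold (20 reads) and 6.48-fold (11 reads), the first of them 3.03 kb past a RefSeq start. The last of the 3 lay beyond the gene end and also over *TMPRSS2*. *MX2* had 1 intronic peak of 5.86-fold (12 reads). *IFI6* had 1 peak of 4.79-fold, which rested on 9 reads and lay 14.2 kb past its start, beyond the gene end. The other 20 effectors had no peak, namely *IFI27*, *IFI35*, *IFI44*, *IFI44L*, *IFIT1*, *IFIT2*, *IFIT3*, *IFIT5*, *IFITM1*, *IFITM2*, *IFITM3*, *OAS2*, *OASL*, *RSAD2*, *XAF1*, *SAMD9*, *PARP9*, *DTX3L*, *TRIM22* and *EIF2AK2*.

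**Figure D3:**
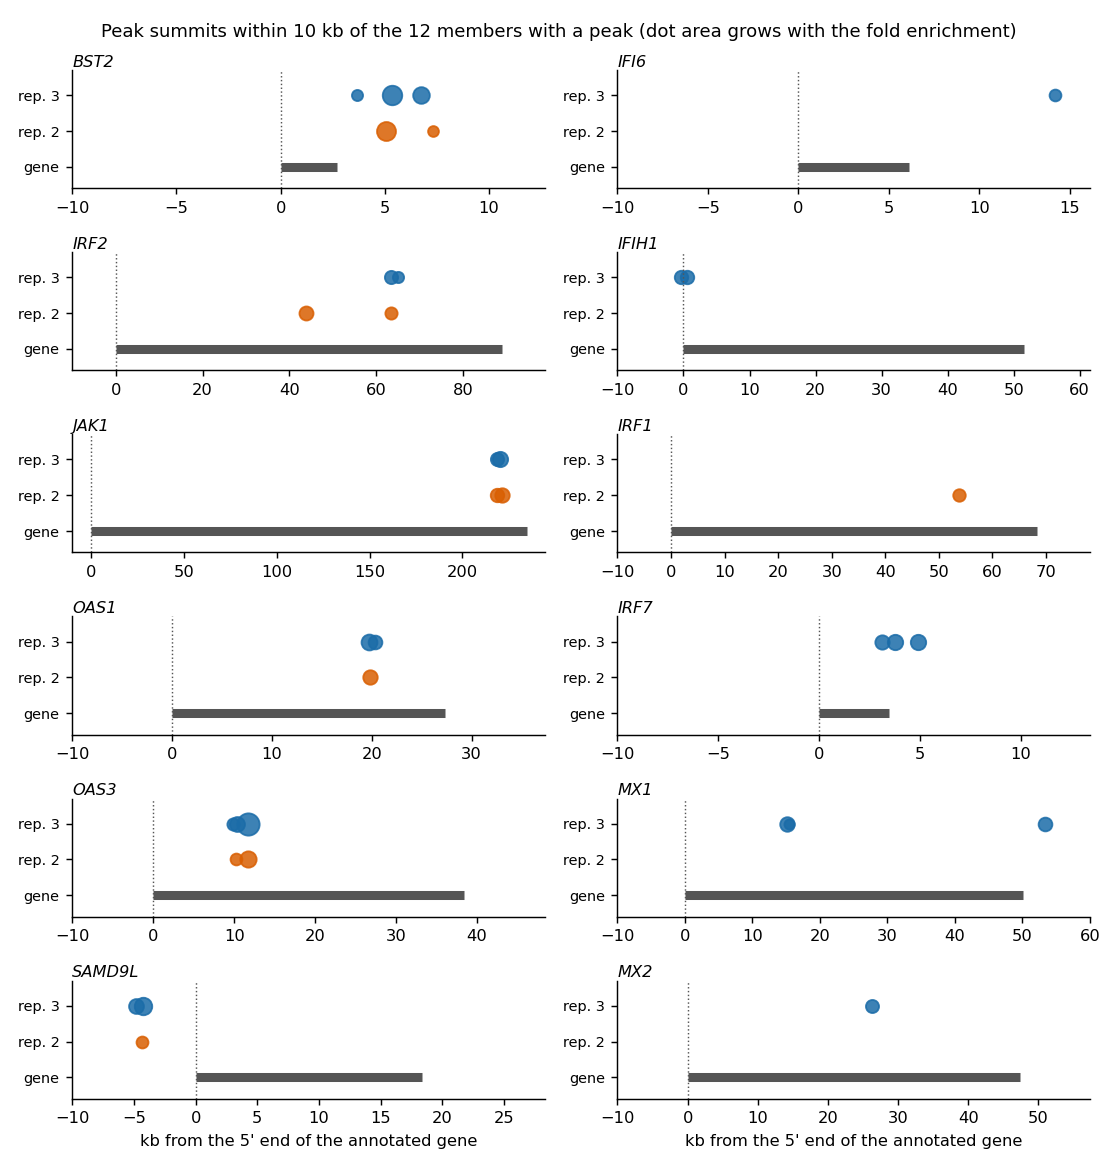
Summits of peaks within 10 kb of the 12 members with a peak, in kb from the 5′ end of the annotated gene (grey bar: gene body), for replicate 2 (orange) and replicate 3 (blue), with dot area growing with the fold enrichment. The left column holds the 6 genes with both replicates, and *IFIH1* is the only gene with summits within 1 kb of its 5′ end.

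Peak strength at the members was like that elsewhere. In replicate 2 the 11 member peaks had a median fold of 6.24 (range 4.01 to 12.3), against 6.07 over all peaks, and a median of 20 reads against 21. The 24 member peaks of replicate 3 had a median of 6.74 (range 3.49 to 16.9), against 6.81, and 15 reads against 16. Over the 8 shared sites the median of the mean folds was 7.61, against 7.25 over all shared sites. The second *OAS3* site was above 90.3% of all shared sites and the *BST2* site above 89.3%, and each of the other 6 was above 21.7% to 58.3% of them.

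**Figure D4:**
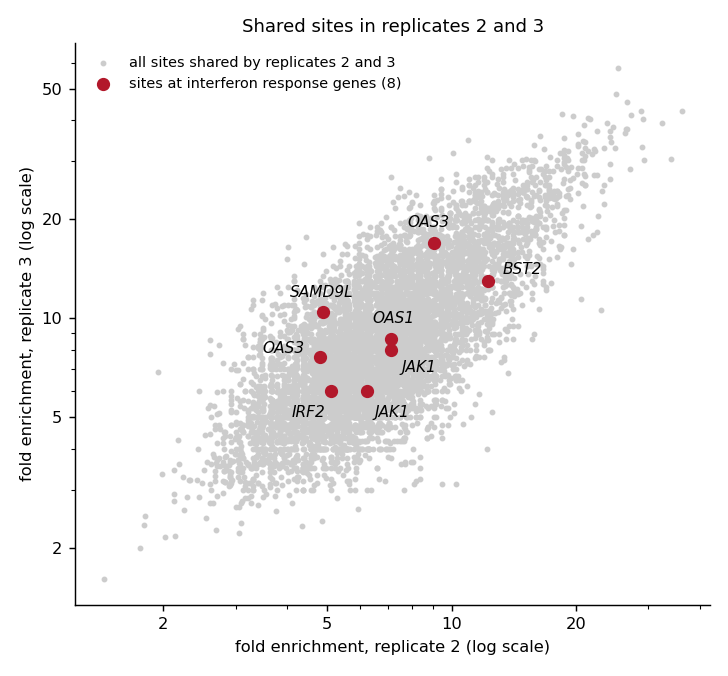
Fold enrichment over lacZ in replicate 2 (x axis) and replicate 3 (y axis), both on log scales, of all sites shared by these replicates (grey) and of the 8 sites at interferon response genes (red). The red points lie inside the grey cloud, with *OAS3* at 9.07 and 16.9 and *BST2* at 12.3 and 13.0 farthest from the origin.

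The distance to the start of the gene depended on which start was meant. From the middle of the summits to the nearest annotated start of any transcript of the member, the median over the 8 sites was 2.91 kb (range 0.088 to 18.2), against 9.81 kb over 6061 pairs of a shared site and a protein-coding gene. By this measure 4 of 8 sites lay within 2 kb, against 15.4% of all pairs, and the 4 were the *JAK1* and *OAS3* sites at internal starts. The 4 sites thus came from *JAK1* and *OAS3* alone, and the pairs were not matched for gene length or number of annotated starts. The 0.088 kb belongs to the first *JAK1* site, whose summits lay 0.598 kb past that start in replicate 2 and 0.422 kb before it in replicate 3. From the start of the longest protein-coding transcript, the median was 15.0 kb against 35.1 kb, and 0 of 8 sites lay within 2 kb against 5.00% of all pairs.

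Counted from the starts of all 47 genes, the nearest shared site lay at a median of 153 kb (quartiles 46.3 and 250 kb), against 140 kb (quartiles 45.1 and 337 kb) for all protein-coding genes. Within 10 kb of a start there was a shared site at 4 members (8.51%), against 9.43% of all genes, and within 100 kb at 21 (44.7%), against 41.5%. *RSAD2*, the gene of viperin, was the farthest from any, at 797 kb.

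The *Alu* element of *MIR205HG* is interrupted by an intron, so sites were aligned to the part kept in the transcript and to the whole element. To the whole element, 7 of 8 member sites aligned over at least 100 bp (87.5%, exact 95% interval 47.3 to 99.7), and to the transcript part alone 4 of 8 did (50%, interval 15.7 to 84.3). *Alu* elements resemble each other, so an alignment says that a site holds an *Alu*, not that it matches *MIR205HG* better than other copies. Both intervals include the shares of all shared sites given above.

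By replicate, 10 of the 11 member peaks of replicate 2 (90.9%, interval 58.7 to 99.8) aligned to the whole element over at least 100 bp, against 61.5% of all its peaks. In replicate 3 it was 12 of 24 (50%, interval 29.1 to 70.9), against 45.6%. The member sites had a GC content of 48.1 to 53.7% with a median of 51.6%, against 47.6% (quartiles 44.1 and 51.2) over all shared sites. Their widths ran from 283 to 2407 bp with a median of 363 bp, against 462 bp.

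The element core described above was found in 1 of 8 member sites (12.5%, interval 0.316 to 52.7), the first of *JAK1*, against 7.61% of all shared sites and 8.93% of those of like width. A match is a description of the letters in the site, and its absence from the other 7 says nothing of the factors.

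The other genes of the pathway were 75 genes, among them receptor chains, sensors and TRIM proteins. Of these, 14 had a peak in at least 1 replicate (18.7%, interval 10.6 to 29.3), 7 in at least 2 (9.33%, interval 3.84 to 18.3) and none in all 3. The first pair of shares lay below the members' 25.5% and 12.8% and below the 28% and 17.2% of all protein-coding genes. Their intervals include these values, and the 75 genes were not matched for length or chromosome. The 7 genes were *TRIM5*, *NLRC5*, *IFNGR2*, *TRIM14*, *TRIM25*, *ADAR* and *HELZ2*. The highest mean folds of their shared sites were 9.62 at *TRIM5*, a restriction factor of retroviruses, 9.11 at *NLRC5*, an activator of MHC class I genes, and 9.08 at *IFNGR2*, a chain of the interferon gamma receptor. *TRIM14* followed with 8.57 and *TRIM25* with 7.49, all below the 13.0 of *OAS3* and the 12.6 of *BST2*.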

How the data were processed

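ChIRP DNA of RWPE-1 cells was sequenced by the authors with single reads of 100 bp and aligned to hg19. The submitters' processing notes name Bowtie 1.0.1 and MACS2 2.1.0, and the methods name Bowtie2. Narrow peaks were called per replicate against 1 lacZ library, and replicates were not pooled. Each deposited peak holds a fold enrichment, which the deposited p-values fit as the ratio of scaled ChIRP reads plus 1 to the local lacZ level plus 1. The authors deposited p-values and q-values on a −log10 scale. The display score they deposited equals the −log10 q-value times 10, without decimals. The lacZ library, input and reads were not analysed here.

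Peaks on assembled chromosomes were used as deposited. Gene bodies and starts came from GENCODE release 44 on GRCh37, and a peak counted from 1 bp of overlap. The number of reads at each summit was derived from both the p-value and the fold, given a depth ratio to the lacZ library estimated on 60 peaks of the replicate, which solved 100% of peaks within 0.001 of the deposited −log10 p. *Alu* alignments were found with blastn 2.17.0 (e-value 1e-05). The *Alu* part of the annotated transcript was taken as bases 180 to 391, a placement carried over from earlier work on these data, since the methods give no positions for it. RefSeq promoters (GRCh38) were placed by exact match. Shares have exact Clopper-Pearson 95% intervals, and intervals cover counting error only. No test was run: only 1 group has peak lists and listed genes are not replicates. The counting steps were tested on simulated data. Python 3.11.15, pandas 2.3.3, numpy 2.4.6, scipy 1.17.1 and pysam 0.24.0 were used.

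The members, their roles and the other pathway genes were chosen with earlier results of these data known. Every member is named with or without peaks, members with a shared site in full, and other pathway genes only as counts, the 7 genes with 2 replicates and the 5 highest mean folds; peaks of 1 replicate were described as well. Replicate numbers follow the sample labels, since the peak names inside the lists carry other numbers. Alternatives were other extensions and windows, stricter folds and q-values, other overlap rules, other limits on like length, other starts, *Alu* and motif rules, and leaving out each replicate.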

Additional observations from a re-analysis of the deposited data

How the results depend on the processing

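Of 53 alternatives, 38 left the value within the limit set for it. With the gene body extended by 50 kb, 21 of 47 members had a peak in at least 1 replicate and 14 had peaks in at least 2. At this extension 49.9% and 32.9% of all protein-coding genes had them. A shared site was found at 12 members, and the ratio to like genes for at least 2 replicates was 0.972. Leaving out each replicate gave 7 to 12 members with a peak, 0 to 6 with peaks in at least 2 replicates, 0 to 6 with a shared site and a ratio of 0 to 0.987. The values of 0 came without replicate 2 or replicate 3, when no member site remained and the distances, *Alu* and motif shares could not be computed. From the start of the longest protein-coding transcript the median distance was 15.0 kb, against 2.91 kb. The *Alu* share was 87.5% from an alignment of 50 bp and 87.5% with the intron part, against 50%. The share with the element core, 12.5%, was 0 with a further C after it and 0 within 100 bp of the summit, as the single match lies away from it. With 8 sites, 1 site is worth 12.5 percentage points. The member peaks had 9 to 50 reads at the summit, and whether weaker binding went uncalled was not tested.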
